A study of Homo sapiens with 6 samples.

Results

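Cells detect misplaced DNA and RNA with a small set of sensors, adaptors and kinases that lead to interferon, and 10 of their genes were read in RNA-seq of thyroid cells exposed to a DNA-damaging drug. The genes were chosen by symbol from a list of the pathway: CGAS, IFIH1, DHX58 and TLR3 (sensors), STING1 and MAVS (adaptors), TBK1 and IKBKE (kinases), IRF3 (transcription factor) and TREX1 (nuclease). All 10 were found among the 22354 loci of the deposited count table, and 9 of them were among the 14860 loci that passed the filter on low counts. Of the 9 tested, IFIH1 passed the threshold, with a lower level under the label BMAL1 knockout, and the other 8 did not pass the threshold; of all 14860 loci, 2.37% passed and 1.36% were lower.

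The cytosolic enzyme cGAS binds DNA and makes the dinucleotide cGAMP, which activates STING1 on the endoplasmic reticulum, while the RNA helicases RIG-I and MDA5 bind double-stranded RNA and signal through MAVS on mitochondria. Both routes, and TLR3 in endosomes, converge on the kinases TBK1 and IKBKE, which phosphorylate IRF3, so that it enters the nucleus and switches on type I and type III interferon genes and a set of antiviral genes directly. DNA damage can expose nuclear DNA to the cytosol, and much of the control of these proteins acts on their activity rather than on their mRNA.

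The 6 libraries came from HTori-3.1, an immortalized line of normal human thyroid cells, 3 labelled control and 3 labelled BMAL1 knockout. The control cells were wild type, and the knockout cells had received Cas9 and a guide against BMAL1, a transcription factor of the circadian clock, by virus, followed by selection with puromycin and the picking of single clones. Both groups had been given etoposide, which blocks topoisomerase and so damages DNA, at 2 µM, for 12 h by the sample labels and 24 h by the protocol. No library without etoposide was analysed here, so the values compare the labels among etoposide-exposed cells and do not measure a response to the drug. How many clones gave the 3 knockout libraries, and whether the replicates were separate cultures, is not given in the sources used here, so the p-values measure only the spread between these samples, which may be technical. A difference between clones and an effect of the edit cannot be told apart in this design.

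The control libraries held 26893063, 27029060 and 28513703 counts in all, and the libraries labelled BMAL1 knockout held 43148059, 29860233 and 43563391. Levels are given as CPM, counts scaled to a common library total by TMM. Knockout replicate 1 stood apart from the other replicates of its group: its counts differed from theirs by 31 and 45 times the variance that counting alone gives, against 7.43 between knockout replicates 2 and 3 and 5.41 to 14.5 within the controls. Some values without it are given below; without it the log2 fold changes of CGAS, IFIT1 and SLC19A1 were 0.01, -0.70 and -0.35.

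BMAL1, the targeted gene, was read first as a check of the labels. It was measured at 11.3, 12.2 and 14.6 CPM in control and at 17.9, 19.8 and 19.4 CPM in the libraries labelled BMAL1 knockout. The groups did not overlap, and the transcript was higher where the label says knockout. Its log2 fold change was 0.58 (95% interval 0.33 to 0.83, adjusted p = 0.0237 by the quasi-likelihood test of edgeR, Benjamini-Hochberg adjusted). With single libraries left out, the adjusted p of the same edgeR test was 0.0304 without control replicate 3 and 0.0153 without knockout replicate 1, but 0.105 and 0.129 without control replicates 1 and 2 and 0.0817 and 0.0598 without knockout replicates 2 and 3. A transcript can be made from an edited gene, so this value alone does not settle the label. The authors checked the clones for BMAL1 protein by western blot, which was not analysed here. Of genes that BMAL1 and CLOCK activate, picked after their values were seen, NR1D1 (log2 fold change -1.25), NR1D2 (-0.78), PER3 (-0.49) and TEF (-0.51) were lower with an edgeR adjusted p under 0.05, while PER1 (-0.22), PER2 (0.33) and DBP (0.01) did not pass; NR1D1 overlaps THRA on the opposite strand. Each fold change below sets the libraries labelled BMAL1 knockout over control.

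The thyroid label was checked against 7 follicular markers. PAX8 (133 ± 15.4 CPM in control, SD, n = 3) and FOXE1 (48.0 ± 0.717 CPM) were abundant, NKX2-1 was at 0 in all libraries, and TG, TSHR and SLC5A5 had means under 1 CPM. The summed CPM of the 7 markers was 172, 173 and 200 in control, against 129, 149 and 173 under the label BMAL1 knockout, and 0 of the 2 tested passed the threshold (unadjusted p of edgeR's test 0.0385 for PAX8 and 0.0104 for FOXE1). Of the chosen markers of blood cells, CD3E, CD3D and MS4A1 among 5 lymphoid genes and CLEC4C and LILRA4 among 7 myeloid and dendritic genes were at 0. PTPRC, IL7R and CD22, leukocyte genes outside the chosen markers that were picked after their values were seen, were counted and had lower levels under the label BMAL1 knockout (log2 fold changes -1.42, -0.72 and -1.10, edgeR adjusted p 0.00107, 0.00305 and 0.0316), and their source was not tested. The summed myeloid and dendritic level was 13.3, 13.8 and 11.8 CPM in control. Under the label BMAL1 knockout it was 12.1, 11.2 and 11.1 CPM, and CD68 carried most of it in both groups. CD68 (log2 fold change -0.27), CD14 (0.97) and ITGAX (0.16) did not pass (edgeR adjusted p 0.294, 0.343 and 0.892). CSF1R had 0 reads in each control and 4, 5 and 9 reads under the label BMAL1 knockout. LYZ had at most 5 reads in any library. The sum of 5 fibroblast genes was 922, 926 and 789 CPM in control, against 718, 935 and 989 under the label BMAL1 knockout, most of it from COL1A1, whose groups overlapped, while DCN and LUM were at 0. The sum of 3 endothelial genes was at most 2.07 CPM. Of 5 epithelial markers, the summed CPM was 2270, 2310 and 2220 in control, against 1820, 1720 and 1770 under the label BMAL1 knockout, with KRT8 the most abundant gene and KRT18 the 1 that passed the threshold (log2 fold change -0.50). KRT8 (log2 fold change -0.28, edgeR adjusted p = 0.0517) and KRT18 carried this sum, KRT19 was at 0.23 with overlap, and EPCAM and CDH1 had means under 1 CPM. Whether KRT8 and KRT18 have a part in the results below was not tested.

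IFIH1 encodes MDA5, the helicase that binds long double-stranded RNA. It lies on chr2:162267074-162318684 on the reverse strand (hg38), and it had 1600, 1765 and 1883 reads in control and 1888, 1577 and 2135 reads in the libraries labelled BMAL1 knockout. Scaled to the totals, these were 59.6, 66.0 and 67.2 CPM in control against 44.2, 51.7 and 48.2 CPM in the libraries labelled BMAL1 knockout. Every library labelled BMAL1 knockout lay below every control library. The means were 64.3 ± 4.08 and 48.0 ± 3.72 CPM (SD, n = 3), a fold of 0.746.

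The log2 fold change of IFIH1 was -0.42 (standard error 0.088, 95% interval -0.61 to -0.23), with an adjusted p of 0.0311 by the quasi-likelihood test of edgeR, Benjamini-Hochberg adjusted. The two-sided exact permutation test of its CPM gave p = 0.1, the smallest that 3 libraries against 3 allow. Among the 14860 loci tested, 352 passed (2.37%), of which 202 were lower (1.36%) and 150 were higher (1.01%). Of the 9 members tested, 1 was lower and 0 were higher, also 0 higher at an unadjusted p under 0.05 and by DESeq2 or limma-voom. In RNA from whole cultures, fewer cells that express IFIH1 and less of its RNA per cell cannot be told apart.

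The call of IFIH1 was close to the threshold. With single libraries left out, its adjusted p from the same edgeR test was 0.0271 without knockout replicate 1, and 0.0556, 0.154 and 0.103 without control replicates 1, 2 and 3, and 0.0507 and 0.0706 without knockout replicates 2 and 3. Its log2 fold change lay between -0.48 and -0.37 over these 6 fits. Over 16 alternatives the adjusted p of IFIH1 ranged from 0.000861 (DESeq2) to 0.154 (edgeR without control replicate 2), with 10 under 0.05. The 40 nearest tested neighbours of IFIH1 on its chromosome had log2 fold changes with a median of 0.06, of which 13 were negative and 27 positive.

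The promoter of IFIH1 is shown because it carries 4 matches to AANNGAAA, the core that IRF factors bind. The stretch that spans them is 172 bases at chr2:162318684-162318855 on the reverse strand (RefSeq, GRCh38.p14), with matches on either strand in capitals and 12 bases to each side.
IFIH1: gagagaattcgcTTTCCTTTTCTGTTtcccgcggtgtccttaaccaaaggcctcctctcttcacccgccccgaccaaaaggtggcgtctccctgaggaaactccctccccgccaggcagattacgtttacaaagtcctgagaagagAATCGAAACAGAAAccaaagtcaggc
The matches begin at -159, -153, -25 and -19 from the start site, and they overlap in pairs. Of 35116 promoters of the same 300 bases, 22.8% hold at least 1 such match and 0.273% hold 4 or more. The promoter holds no CACGTG, the E-box that BMAL1 and CLOCK bind, which 7.26% of all promoters hold. A match is a description of letters and not a measured site.

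The relatives of IFIH1 did not all show the same values. DHX58 encodes LGP2, a helicase of the same family that lacks the signalling domain. It was measured at 5.93, 5.76 and 4.71 CPM in control and at 3.44, 5.40 and 5.03 CPM in the libraries labelled BMAL1 knockout, so the groups overlapped and knockout replicate 1 was the lowest. For DHX58 the log2 fold change was -0.25 (95% interval -0.65 to 0.15, adjusted p = 0.523, edgeR's quasi-likelihood test), and -0.07 without knockout replicate 1. A fall as large as that of IFIH1 lies inside this interval.

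RIGI, not in the chosen list but the third helicase of the family, senses short double-stranded RNA with a triphosphate end. Its CPM was 78.2, 77.3 and 88.2 in control, against 62.5, 54.1 and 50.3 under the label BMAL1 knockout. The groups did not overlap. The log2 fold change of RIGI was -0.55 (95% interval -0.76 to -0.33, adjusted p = 0.0145 by the same edgeR test). Its adjusted p from the same edgeR test was 0.0592 and 0.0836 without control replicates 2 and 3 and 0.0507 without knockout replicate 2, and under 0.05 in the other 3 fits that left out 1 library. In the annotation, 43.2% of the exon bases of RIGI are shared with a second gene model on the same strand, so the count may depend on how shared reads were assigned. The promoter of RIGI has 3 matches to AANNGAAA, which 1.25% of all promoters reach or exceed, in 98 bases at chr9:32526313-32526410 on the reverse strand, printed to set beside that of IFIH1.
RIGI: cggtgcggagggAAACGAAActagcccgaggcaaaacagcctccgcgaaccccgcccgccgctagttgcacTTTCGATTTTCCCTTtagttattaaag

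TLR3 senses double-stranded RNA in endosomes. It was measured at 7.27, 7.18 and 8.61 CPM in control and at 8.97, 8.71 and 8.40 CPM in the libraries labelled BMAL1 knockout. Control replicate 3 lay within the other group and the other 2 controls lay below it. For TLR3 the log2 fold change was 0.18 (95% interval -0.09 to 0.44, adjusted p = 0.496, edgeR's quasi-likelihood test). Its promoter has 1 match, overlapping the start site, in 32 bases at chr4:186069140-186069171 on the forward strand.
TLR3: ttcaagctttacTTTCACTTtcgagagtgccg

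CGAS, the sensor of cytosolic DNA, showed little difference between groups. It was measured at 21.6, 22.5 and 21.1 CPM in control and at 24.3, 21.2 and 22.4 CPM in the libraries labelled BMAL1 knockout, and the groups overlapped. For CGAS the log2 fold change was 0.06 (95% interval -0.14 to 0.27, adjusted p = 0.792, edgeR's quasi-likelihood test), so the data leave room for a change from -9.36% to 20.2%.

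**Figure D1:**
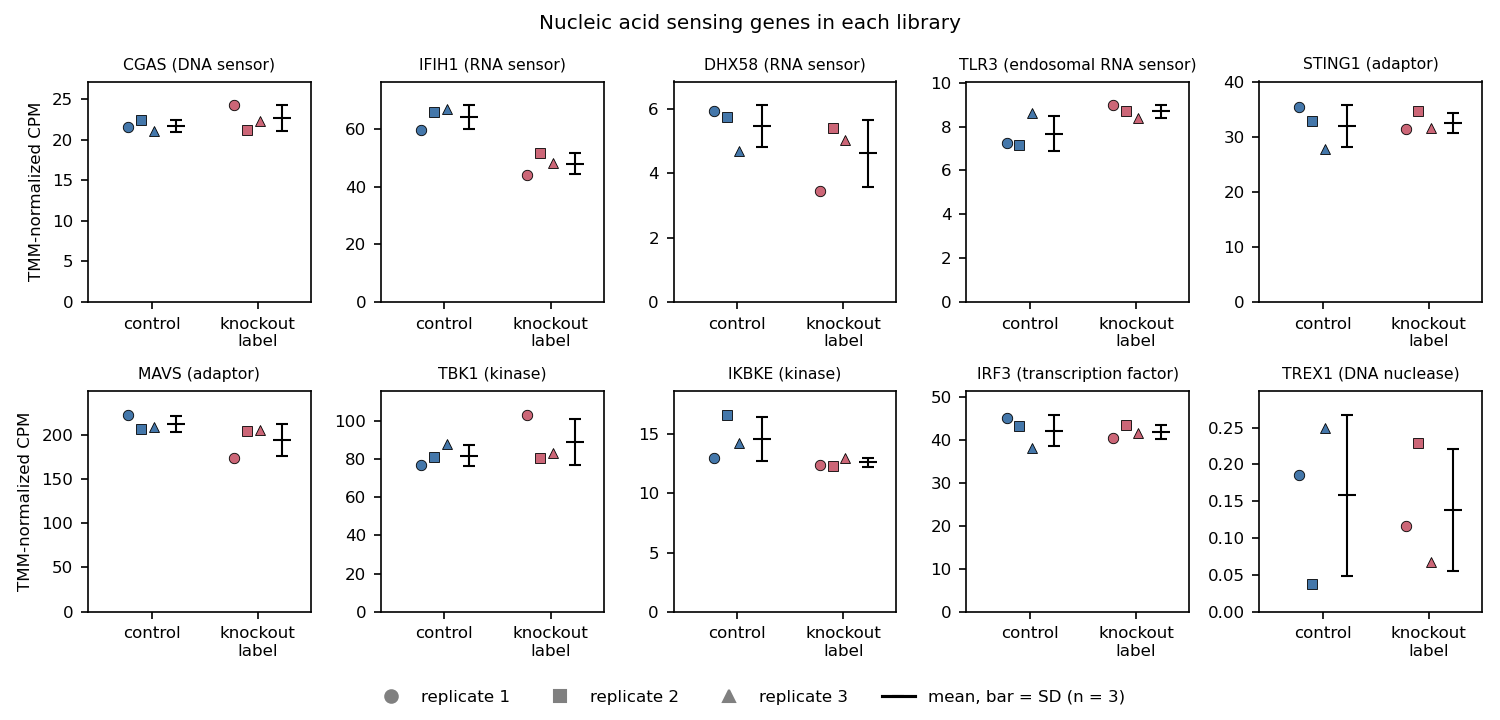
TMM-normalized CPM (y axis, from 0, a scale of its own for each gene) of the 10 genes in each library, with replicates as circles, squares and triangles and the mean and SD (n = 3) as black bars. The 3 libraries labelled BMAL1 knockout lie between 44.2 and 51.7 CPM for IFIH1, below the controls at 59.6 to 67.2 CPM, while TREX1 stays under 0.3 CPM.

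The adaptors sit at the next step. STING1, which cGAMP activates, was measured at 35.3, 32.8 and 27.8 CPM in control and at 31.3, 34.6 and 31.6 CPM in the libraries labelled BMAL1 knockout, with overlap. For STING1 the log2 fold change was 0.02 (95% interval -0.20 to 0.25), and it took both signs with single libraries left out. MAVS, the adaptor of the RNA helicases, was measured at 222, 206 and 209 CPM in control and at 173, 204 and 205 CPM in the libraries labelled BMAL1 knockout. The groups did not overlap, but the gap between control replicate 2 and knockout replicate 3 was small and knockout replicate 1 was far below the rest. The log2 fold change of MAVS was -0.13 (95% interval -0.32 to 0.05, adjusted p = 0.46, edgeR's quasi-likelihood test), and -0.06 without knockout replicate 1. Of the 9 tested members, IFIH1 and MAVS were the 2 whose ranges did not overlap (22.2%), against 23.3% of all loci tested, so the count of such genes was near the background.

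Of the kinases, TBK1 was measured at 76.6, 80.9 and 87.7 CPM in control and at 103, 80.5 and 83.3 CPM in the libraries labelled BMAL1 knockout. Only knockout replicate 1 lay above the controls. For TBK1 the log2 fold change was 0.12 (95% interval -0.10 to 0.34), and 0.002 without that library. IKBKE, the second kinase, was measured at 13.0, 16.6 and 14.2 CPM in control and at 12.4, 12.3 and 13.0 CPM in the libraries labelled BMAL1 knockout. Its groups met at 13.0 CPM, and its log2 fold change was -0.21 (95% interval -0.46 to 0.04, adjusted p = 0.373, edgeR's quasi-likelihood test). The promoter of TBK1 holds the 1 E-box found among the 6 members with a RefSeq promoter, at -31, shown since BMAL1 binds such letters, at chr12:64452077-64452106 on the forward strand.
TBK1: ccggccgtcggtCACGTGgcctccggccag

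IRF3, the factor these kinases phosphorylate, was measured at 45.1, 43.3 and 38.1 CPM in control and at 40.3, 43.4 and 41.6 CPM in the libraries labelled BMAL1 knockout. The groups overlapped fully. Its log2 fold change was -0.01 (95% interval -0.21 to 0.18, adjusted p = 0.962, edgeR's quasi-likelihood test), and the sign was positive with library-size scaling, at 0.02. Of its exon bases, 19.4% lie opposite BCL2L12, and without a stated strand setting reads from either strand cannot be told apart. BCL2L12 itself had a log2 fold change of -0.16 (adjusted p = 0.439, the same edgeR test).

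TREX1 degrades cytosolic DNA and so limits cGAS. It had 5, 1 and 7 reads in control and 5, 7 and 3 reads where the label says BMAL1 knockout, and it was not tested. All 1448 exon bases of TREX1 lie within exons of ATRIP on the same strand, so a low count here does not measure TREX1 alone: reads from it may have been counted for ATRIP or for neither. ATRIP was measured at 25.3, 24.9 and 21.3 CPM in control and at 22.4, 23.6 and 21.8 CPM in the libraries labelled BMAL1 knockout, with overlap.

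**Figure D2:**
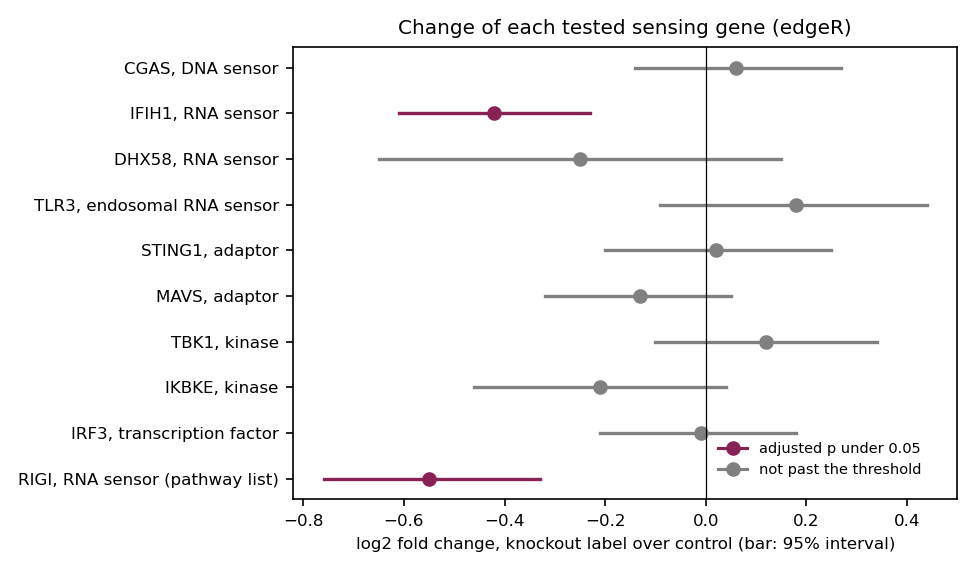
Log2 fold change (x axis, libraries labelled BMAL1 knockout over control) of the 9 tested members and RIGI, with bars for the 95% interval of edgeR's fit and dark marks for an adjusted p under 0.05. The intervals of IFIH1 (-0.61 to -0.23) and RIGI (-0.76 to -0.33) lie below 0 and the others span it.

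Over the 9 tested members, 5 log2 fold changes were negative and 4 positive with a median of -0.01, against 7087 negative and 7773 positive with a median of 0.01 over all loci tested. Whether the fall of IFIH1 differed from the change of any other member was not tested.

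Levels can be compared between genes only per length, here as CPM per kb of exon. In control, MAVS stood highest at 18.0 ± 0.749 CPM per kb (SD, n = 3), followed by IFIH1 at 12.3 ± 0.781 and IRF3 at 11.1 ± 0.962, whose library ranges overlapped. STING1 (6.66 CPM per kb), TBK1 (5.55) and CGAS (5.21) came next, and each overlapped with its neighbour in this order. IKBKE (3.85 CPM per kb), DHX58 (1.43) and TLR3 (1.03) followed with ranges apart. Under the label BMAL1 knockout, the level of IFIH1 was 9.19 ± 0.712 CPM per kb, below that of IRF3 with ranges apart, and DHX58 and TLR3 overlapped. The exon length joins all annotated transcripts of a gene, so a gene with long alternative exons, such as TBK1 with 14.716 kb, has its level understated.

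The rest of the pathway was read from a list of 114 other genes written by role, of which 104 were tested. Of these, 10 were lower and 0 were higher. At an unadjusted edgeR p under 0.05, 19 were lower and 2 higher, and the adjusted counts were 11 lower and 0 higher by DESeq2, 7 lower and 0 higher by limma-voom, and 6 lower with scaling by library size only. The 10 lower genes were 9.62% of those tested, against 1.36% of all loci, and 7 of them are IRF3 output genes. The list was written with earlier results of these data known, so this share is a description and not a test. Without the IRF3 output genes, 3 of 91 were lower (3.3%). With single libraries left out, the count of lower genes was 10 without knockout replicate 1, 4, 3 and 4 without control replicates 1, 2 and 3, and 3 and 5 without knockout replicates 2 and 3. The median log2 fold change of the 104 genes was -0.07, and 68 were negative.

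Among the sensors, 7 of 12 were tested, and RIGI was the 1 that passed. IFI16, which binds nuclear and cytosolic DNA, had a log2 fold change of 0.15 (95% interval -0.14 to 0.43); knockout replicate 1 stood at 33.4 CPM, and the other knockout libraries, at 25.3 and 23.2, lay within the range of the controls, 23.1 to 26.6 CPM. The median of the 7 was 0.08. Of the 15 adaptors and scaffolds, 0 passed, also 0 at an unadjusted p under 0.05 by edgeR, DESeq2 or limma-voom, with a median of -0.01. TICAM1, the adaptor of TLR3, had a log2 fold change of -0.14, and TRAF3, the ubiquitin ligase that links adaptors to TBK1, of -0.15.

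Of 28 regulators, 1 passed. TNFAIP3 encodes A20, a brake on NF-κB signalling, and was measured at 48.4, 46.8 and 43.8 CPM in control and at 30.5, 29.5 and 32.9 CPM in the libraries labelled BMAL1 knockout. The groups were well apart. Its log2 fold change was -0.58 (adjusted p = 0.00547 by the quasi-likelihood test of edgeR, Benjamini-Hochberg adjusted), and the adjusted p was at most 0.0419 in all 6 edgeR fits that left out 1 library. The 40 nearest genes had a median of -0.11, with 32 negative, and the part of this region in the value of TNFAIP3 was not tested. Of the 10 IRF and NF-κB factors, 0 passed (at an unadjusted p under 0.05, 1 was lower and 1 was higher in each of edgeR, DESeq2 and limma-voom), and IRF7, the interferon-inducible relative of IRF3, had a log2 fold change of 0.05.

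Of 16 tested genes that handle nucleic acids or cGAMP, SLC19A1, a cGAMP importer, was the 1 that passed. It was measured at 61.6, 71.6 and 65.0 CPM in control and at 42.3, 48.3 and 55.0 CPM in the libraries labelled BMAL1 knockout, with no overlap, and 13.9% of its exon bases lie opposite COL18A1. The gene's log2 fold change was -0.44 with an adjusted p of 0.0498 (edgeR's quasi-likelihood test), under 0.05 in 2 of the 6 fits that left out 1 library, those without knockout replicates 1 and 3, and up to 0.214 in the others. It was 0.0677 with limma-voom and 0.00344 with DESeq2. In edgeR it was 0.0692 with library size only, 0.0618 with a replicate block and 0.0529 with counts thinned to the smallest library total. The 32 nearest tested genes had a median of -0.18, with 24 negative, and the part of this region in the value of SLC19A1 was not tested. The RNA editor ADAR (-0.14), the nuclease SAMHD1 (-0.14), RNASEH2A (0.10), RNASEH2B (0.25) and RNASEH2C (-0.07), the subunits of ribonuclease H, and ENPP1 (0.18), which degrades cGAMP, had log2 fold changes that did not pass. Of the exon bases of RNASEH2A, 53.3% are shared with THSD8 on the same strand, and 28.9% of those of RNASEH2C lie opposite KAT5 and 9.86% of those of SAMHD1 opposite TLDC2, so these values may not measure the genes alone.

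The interferons were expressed at low levels in both groups. IFNB1, the first type I interferon that IRF3 switches on, was measured at 2.53, 1.57 and 1.82 CPM in control and at 2.16, 1.11 and 2.30 CPM in the libraries labelled BMAL1 knockout. The groups overlapped, and its log2 fold change was -0.04 (95% interval -0.65 to 0.57, adjusted p = 0.964, edgeR's quasi-likelihood test), an interval wide enough to hold a change as large as that of RIGI. STAT2, which carries the signal of the interferon receptor, had a log2 fold change of -0.14 and did not pass. Of the 15 tested interferons, receptors and signal carriers, 0 passed by edgeR, DESeq2 or limma-voom, with 3, 1 and 3 lower at an unadjusted p under 0.05. ZBP1, TLR8, DNASE1L3, IFNA2 and IFNK were at 0 in all libraries, and 3 reads, the limit that a count of 0 allows, correspond to 0.0677 to 0.112 CPM by library. TLR9 was at 0 too, but 99.7% of its exon bases are shared with a second gene model on the same strand, so this does not measure TLR9 alone.

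**Figure D3:**
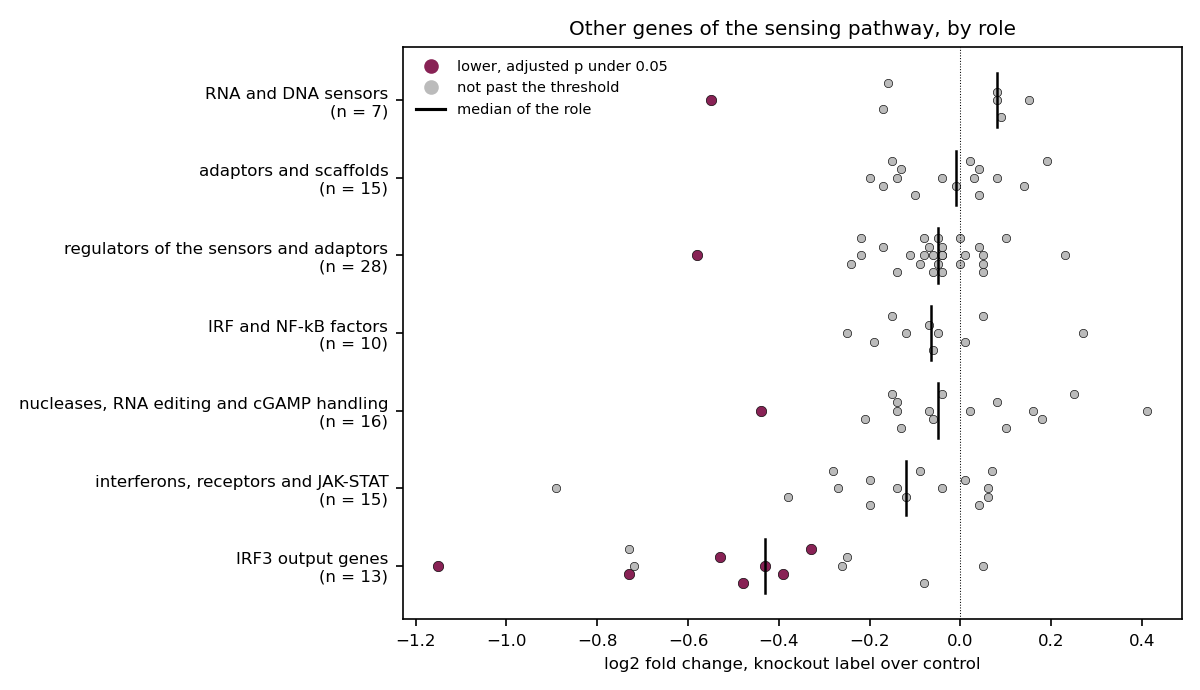
Log2 fold change (x axis, libraries labelled BMAL1 knockout over control) of the 104 tested pathway genes by role, with the number of genes in brackets, a black line for the median of each role and dark marks for a lower gene with an adjusted p under 0.05. The 13 IRF3 output genes have a median of -0.43, and the other roles have medians between -0.12 and 0.08.

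The IRF3 output genes, which IRF3 can switch on directly and which interferon also induces, held most of the lower genes. Of 13 tested, 7 were lower (53.8%, against 1.36% of all loci) and 12 had a negative log2 fold change. Ranges were apart and lower in 10 of the 13 (76.9%), against 1715 of all 14860 loci tested. In either direction, 23.3% of all loci were apart. The median log2 fold change of the 13 was -0.43. Their list was written with earlier results of these data known, so these shares are a description and not a test. The same samples gave these genes and the members, and several of the genes are co-induced, so they are not independent of each other.

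OASL, a relative of the oligoadenylate synthetases that binds cGAS and RIG-I, had the largest fall of the 13. It was measured at 81.9, 86.5 and 75.8 CPM in control and at 37.0, 37.1 and 36.1 CPM in the libraries labelled BMAL1 knockout. The level in each library labelled BMAL1 knockout was less than that of every control by a wide gap. For OASL the log2 fold change was -1.15 (95% interval -1.32 to -0.97, adjusted p = 5.16e-05 by the quasi-likelihood test of edgeR, Benjamini-Hochberg adjusted), with an adjusted p of at most 0.00113 in the 6 fits that left out 1 library. The 40 nearest tested genes had a median of -0.24, with 34 negative and 7 lower past the threshold. The part of this region in the value of OASL was not tested.

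IFIT3, which binds IFIT1 on viral RNA, was measured at 194, 198 and 209 CPM in control and at 144, 147 and 139 CPM under the label BMAL1 knockout, with the groups apart. Its log2 fold change was -0.48 (adjusted p = 0.00545 by the quasi-likelihood test of edgeR, Benjamini-Hochberg adjusted), with an adjusted p of at most 0.0424 in all 6 fits that left out 1 library. IFIT1 (-0.53), IFIT2 (-0.39), HERC5 (-0.33) and CCL5 (-0.43) also passed, and each kept an adjusted edgeR p under 0.05 in 1 of these 6 fits, the one without knockout replicate 1. ISG20, a ribonuclease, passed at -0.73 and kept it in 1 of the 6, the one without control replicate 3. Its adjusted p was 0.0738 with limma-voom, and in edgeR 0.0576 with library size only and 0.0563 with thinned counts. For CCL5 it was 0.0527 with limma-voom, and in edgeR 0.0575 with library size only and 0.0697 with a replicate block. In edgeR, HERC5 had 0.0551 with library size only and 0.113 with the block, and IFIT2 had 0.0735 with the block. The log2 fold changes of these genes stayed negative in every alternative. The IFIT genes are paralogues, and since the authors counted reads with a single mapping, reads that match several of them equally may be missing from the counts. Of the exon bases of IFIT2, 12.1% are shared with a noncoding gene on the same strand, so its count may depend on how shared reads were assigned.

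The 6 other output genes did not pass in edgeR; of the 13, DESeq2 gave 8 lower and limma-voom 5. ISG15, a ubiquitin-like protein, was measured at 89.6, 87.4 and 79.4 CPM in control and at 72.2, 75.0 and 68.6 CPM under the label BMAL1 knockout, with the groups apart and a log2 fold change of -0.25 (adjusted p = 0.132, edgeR's quasi-likelihood test). ZC3HAV1 (-0.26), CXCL10 (-0.73) and CXCL11 (-0.72) were negative as well, the last 2 at under 5 CPM. RSAD2 (-0.08) and IFIT5 (0.05) showed little difference.

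**Figure D4:**
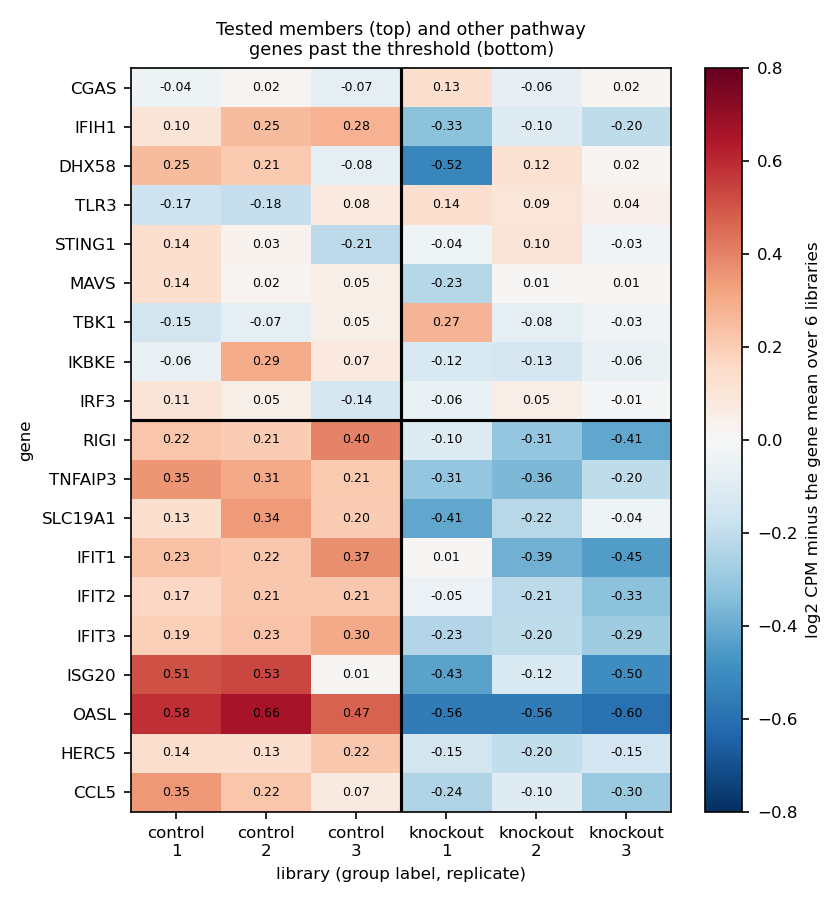
Log2 CPM of each gene minus its mean over the 6 libraries (colour, and printed in each cell), for the 9 tested members above the line and the 10 lower pathway genes below it, with the libraries as columns. OASL runs from 0.66 in control replicate 2 to -0.60 in knockout replicate 3, and IFIH1 from 0.28 to -0.33, while CGAS stays between -0.07 and 0.13.

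Among 13332 loci whose mean CPM was 1 or more, the profiles closest to IFIH1 over the 6 libraries were those of NOP14, RNF208 and DNAAF11, at root mean square differences of 0.0455, 0.0477 and 0.0510 in centred log2 CPM. They were picked for this likeness, which was not tested.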

How the data were processed

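RNA of 6 libraries was sequenced as paired reads. The authors named fastp 0.20.1 and HISAT2 2.0.4 in their processing notes, used hg38, and deposited raw counts of reads per gene, not normalized; the annotation and strand setting are not given in the sources used here. Symbols were matched to GENCODE v44 (19985 of 22354 loci). In R 4.3.3, edgeR 4.0.16 gave TMM-scaled CPM, log2 fold changes and two-sided p-values (default low-count filter, robust quasi-likelihood fit, Benjamini-Hochberg adjustment over 14860 loci). These steps were tested on simulated data, with an outcome that is not reported here. The legacy option of the quasi-likelihood fit was turned off to match an earlier processing of these counts, after results of both settings had been seen; with it on, 161 genes were higher and 212 lower, and IFIH1 passed in 3 of the 6 fits that left out 1 library (1 with it off) and also with a replicate block (adjusted p = 0.047, against 0.0571 with it off). Standard errors are the log2 fold change over the root of F. Alternatives were DESeq2 1.42.0, limma-voom 3.58.1, other scalings, filters and thresholds, GC correction, thinning, a replicate block and leaving out each library.

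The members and lists were chosen with earlier results of these data known. Genes named were all members, every pathway gene past the threshold, 14 pathway genes whatever their values (some named genes and markers are not reported here), those at 0 in every library, the target, and the 3 profiles closest to the member with the smallest p; KRT18, PTPRC, IL7R, CD22, the clock genes other than the target, the 6 output genes that did not pass, and the other genes of overlaps and markers were named after their values were seen. Promoters (250 bases before to 50 after the start site) came from RefSeq, with 6 of 10 members found. CACGTG and AANNGAAA were searched on both strands, and no member's promoter held both. Besides the matches shown, the promoter of IKBKE had 1 match to AANNGAAA, at -115. Those of MAVS, TBK1 and TREX1 had no match to AANNGAAA. Counts and floors cover counting error only.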

Additional observations from a re-analysis of the deposited data

How the results depend on the processing

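The replicate numbers did not pair the samples: deviations of same-numbered libraries correlated at -0.0896, -0.0517 and -0.00471. With the replicate block, 97 genes were higher and 119 lower, 0 members were lower and 6 other pathway genes were lower; the adjusted p of IFIH1 was then 0.0571 by edgeR. With DESeq2 256 genes were higher and 379 lower, with the exon GC trend removed 483 and 555, and at an adjusted p under 0.1 363 and 388. With single libraries left out, 39 to 323 genes were higher and 65 to 360 lower, 0 to 1 members were lower, 3 to 10 other pathway genes were lower, and the log2 fold change of BMAL1 ran from 0.50 to 0.69. With library size only, 6 other pathway genes were lower. IRF3 turned to 0.02 with library size only and 0.01 with the GC trend removed, and ran from -0.08 to 0.04 with libraries left out, as STING1 did from -0.07 to 0.10. No member or other pathway gene was higher in any alternative. The cause of these differences was not tested. The edgeR legacy fit, added as an alternative after seeing the data, kept IFIH1 lower at an adjusted p of 0.0292. With that fit 9 other pathway genes were lower, and ISG20 did not pass (edgeR adjusted p = 0.0536). Genes under a few CPM, such as IFNB1 and TREX1, rest on low counts, and whether depth limits their values was not tested.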

Other observations

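Other genes of the pathway list, chosen here after their values were seen, had groups apart without passing the threshold. IRF5, a relative of IRF3, was higher in each library labelled BMAL1 knockout than in any control, at 16.1, 17.6 and 16.2 CPM against 15.7, 13.2 and 12.5 CPM (log2 fold change 0.27, edgeR adjusted p = 0.249).

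The genes of the receptor chains of type I interferon, both on chromosome 21, lay lower without overlap. IL10RB, a gene that lies between them, had a log2 fold change of 0.06 with overlap. The part of this region in their values was not tested. IFNAR1 was measured at 105, 103 and 112 CPM in control and at 97.1, 90.5 and 91.6 CPM under the label BMAL1 knockout (log2 fold change -0.20, edgeR adjusted p = 0.203), and IFNAR2, which shares 14.7% of its exon bases with a readthrough gene on the same strand, had a log2 fold change of -0.20 (edgeR adjusted p = 0.292). The type III interferon IFNL1 was measured at 2.76, 3.29 and 2.64 CPM and at 2.41, 2.49 and 2.28 CPM (log2 fold change -0.28, edgeR adjusted p = 0.446). IFNL2 and IFNL3 are near-identical copies, so their separate counts are uncertain.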
